A study of Mus musculus with 2 samples.

Results

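The genes described here encode the receptor complex that senses bacterial lipid A and the adaptors and kinases that carry its signal. They are 39 genes chosen by symbol, of 55536 mouse genes in the tables: 4 of the receptor complex, 10 of the MyD88 arm, 6 of the TRIF arm, 7 of the TAK1 and IKK complexes and 12 of the MAP kinase cascades. The RNA came from the nucleoplasm, the fraction of the nucleus that is not bound to chromatin, of primary macrophages grown from C57BL/6J mouse bone marrow and given 100 ng/ml lipid A for 20 min. This 1 group has 2 libraries of RNA depleted of ribosomal RNA. The RNA input was 1 µg for replicate 1 and 500 ng for replicate 2. Sex and age were not recorded, and the labels give both libraries the same donor identifier without saying whether they are separate cultures or animals. The amount of input and the replicate cannot be told apart, and the spread between the libraries may be technical. Unstimulated cells and other cell fractions were not analysed here, so the values are levels under lipid A and not responses to it.

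TLR4 sits at the cell surface with its partner MD-2, and CD14 hands it lipopolysaccharide delivered by the serum protein LBP. The bound receptor recruits the adaptors TIRAP and MyD88, which assemble IRAK kinases and the ubiquitin ligase TRAF6 and so switch on the kinase TAK1, the IKK complex and the MAP kinases. After uptake into endosomes it works through TRAM and TRIF, which lead through TRAF3 to the kinases TBK1 and IKK-epsilon and to type I interferon. In macrophages many, but not all, proteins of these arms are already present before a stimulus, while many of their target genes are switched on within minutes.

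Depth was alike, with 18194818 expected counts in replicate 1 and 18667509 in replicate 2, and the 39 genes took 0.320% and 0.270% of them. A count of 0 would allow up to 0.165 CPM (counts scaled to the library total) in replicate 1 and 0.161 in replicate 2, for counting error only. All 10 macrophage markers reached 1 TPM, a unit of transcript abundance corrected for length, in both libraries, with medians of 223 TPM in replicate 1 and 197 in replicate 2. The summed TPM in replicate 1 and in replicate 2 was 3.59 and 5.12 for 8 neutrophil markers, 0.42 and 0.61 for 5 B cell markers, 0.08 and 0.06 for 6 T and NK cell markers, 3.58 and 3.25 for 6 dendritic cell markers and 1.13 and 0.76 for 6 stromal markers. Of these 31 genes, the dendritic cell gene Zbtb46 was the 1 that reached 1 TPM in both libraries. These values are from the first of the authors' 2 quantifications of the same reads, as are those below unless stated otherwise. In the second, Cd3d, Cd8a, Pecam1 and Siglech reached 1 TPM in both libraries as well. Cd3d had 2.90 TPM in replicate 1 and 9.43 in replicate 2 there, and Pecam1 had 3.22 and 7.67. Cd8a had 1.03 and 1.60 TPM, and Siglech had 1.03 and 1.32. Among 7 erythroid and megakaryocyte markers the sum was 68.2 and 74.3 TPM, and 3 of them reached 1 TPM in both libraries, namely Pf4 at 62.2 and 69.2 TPM, Alas2 at 3.54 and 3.63 TPM and Itga2b at 1.30 and 1.02 TPM. Hbb-bt was at 0. In bulk RNA, fewer cells of a type and less RNA per cell cannot be told apart.

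Nearly the whole pathway was present in nucleoplasmic RNA. Of the 39 genes, 38 reached 1 TPM in both libraries, against 44.9% of 22015 nuclear-encoded protein-coding genes. In the second quantification 37 of the 39 did. The median level of the 39 was 18.8 ± 3.83 TPM (SD, n = 2 libraries), and the median over all protein-coding genes was 0.59 TPM in replicate 1 and 0.48 in replicate 2. Among protein-coding genes that reached 1 TPM in both libraries the median was 9.91 TPM. Median levels of the arms lay close together, at 17.2 ± 0.983 TPM for the receptor complex, 18.025 ± 5.27 for the MyD88 arm, 23.7 ± 1.51 for the TRIF arm, 18.8 ± 3.83 for TAK1 and IKK and 18.8 ± 4.25 for the MAP kinases (SD, n = 2 libraries each). Within each arm the levels spanned more than 1 order of magnitude, as the plot of levels by library shows. Cd14 and Ikbke together held 40.4% of the summed TPM of the 39 genes in replicate 1 and 39.1% in replicate 2.

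**Figure D1:**
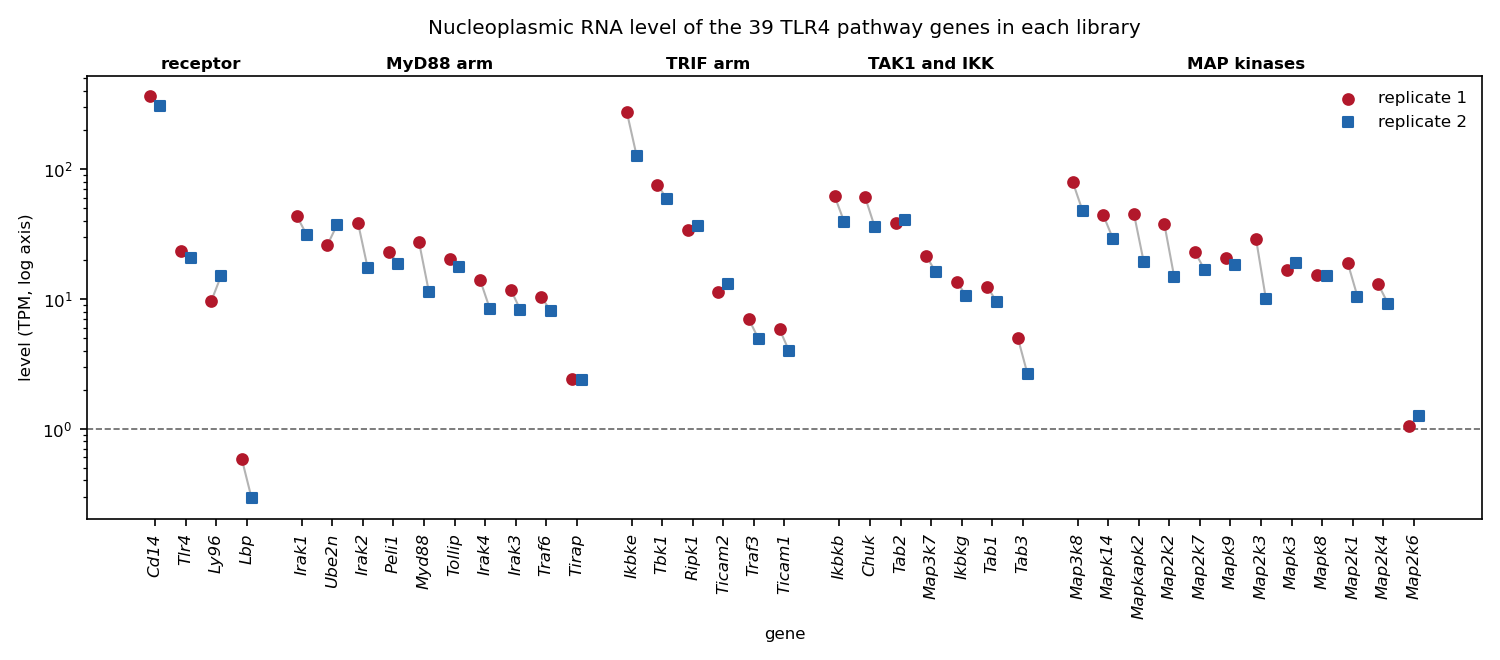
Level of each gene (TPM, log axis) in replicate 1 (circles, left) and replicate 2 (squares, right), grouped by arm and ordered by mean level. Cd14 and Ikbke stand above the other genes in both libraries, and Lbp alone lies below the dashed line at 1 TPM.

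TPM values carry a shift that is not particular to these genes. The median log2 ratio of TPM, replicate 1 over replicate 2, was 0.36 over all genes tested and 0.46 over the 39, and 32 of the 39 had the higher TPM in replicate 1. In the second of the authors' 2 quantifications of the same reads, 8 of the 39 did. Differences between the libraries are therefore read below from scaled counts, where the median ratio over all genes was -0.0034 on the log2 scale.

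The receptor complex was uneven. Cd14 (chr18:36725067-36726798, minus strand, mm10), the co-receptor that transfers lipopolysaccharide, had 364 TPM in replicate 1 and 308 in replicate 2, and its mean ranked 55 among protein-coding genes. Tlr4 (chr4:66827584-66930284, plus strand), the signalling receptor itself, had 23.4 TPM in replicate 1 and 20.8 in replicate 2. Ly96 (chr1:16688051-16709611, plus strand), which encodes the lipid A-binding partner MD-2, had 9.66 TPM in replicate 1 and 15.1 in replicate 2, from 79 and 153 counts. Cd14 was thus an order of magnitude above Tlr4 in both libraries, while Ly96 was below Tlr4 in both. Lbp, a plasma protein made mainly by the liver, had 0.58 TPM in replicate 1 and 0.29 in replicate 2, from 16 and 15 counts. The deposited interval for Lbp ran from 0.382 to 1.69 TPM in replicate 1 and from 0.266 to 1.12 TPM in replicate 2. In the second of the authors' quantifications Lbp had 0.705 TPM in replicate 1 and 1.55 in replicate 2, from 61.0 and 100 counts. Its level rested on few reads in the first quantification, differed in the second and was poorly fixed.

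In the MyD88 arm the 2 adaptors stood far apart. Myd88 had 27.2 TPM in replicate 1 and 11.4 in replicate 2, and Tirap, which brings MyD88 to the membrane, had 2.43 TPM in replicate 1 and 2.38 in replicate 2. The 4 IRAK genes followed the order Irak1, Irak2, Irak4 and Irak3 in both libraries. Irak1, a kinase of the signalling complex, had 43.3 TPM in replicate 1 and 31.3 in replicate 2. Irak2, which sustains signalling in the same complex, had 38.6 TPM in replicate 1 and 17.2 in replicate 2. Irak4, the kinase that acts first in the complex, had 14.0 TPM in replicate 1 and 8.36 in replicate 2. Irak3, which encodes the inhibitory IRAK-M, had 11.8 TPM in replicate 1 and 8.20 in replicate 2. The values of Irak1 and Irak2 overlapped across the 2 libraries, as did those of Irak4 and Irak3. In the second quantification Irak2 stood above Irak1, with 36.2 TPM in replicate 1 and 26.2 in replicate 2, against 16.9 and 24.7 for Irak1.

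The ubiquitin enzymes of the same arm were all present. Traf6, the ligase that builds the chains on which TAK1 is activated, had 10.3 TPM in replicate 1 and 8.03 in replicate 2. Ube2n, which encodes the conjugating enzyme Ubc13 that works with TRAF6, had 26.1 TPM in replicate 1 and 37.4 in replicate 2. Peli1, an E3 ligase that modifies IRAK proteins, had 23.1 TPM in replicate 1 and 18.7 in replicate 2, and Tollip, which binds and restrains IRAK1, had 20.4 and 17.7 TPM. Ube2n was one of few of the genes with the higher TPM in replicate 2.

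The TRIF arm held the most abundant kinase of the list. Ikbke (chr1:131254343-131279606, minus strand), which encodes IKK-epsilon, had 276 TPM in replicate 1 and 127 in replicate 2 and ranked 147 among protein-coding genes. Tbk1, its close relative, had 75.9 TPM in replicate 1 and 58.7 in replicate 2. Ripk1, a kinase that binds TRIF, had 33.9 TPM in replicate 1 and 36.5 in replicate 2. The adaptors were lower. Ticam2, which encodes TRAM, had 11.2 TPM in replicate 1 and 12.9 in replicate 2, and Ticam1, which encodes TRIF, had 5.84 and 3.94 TPM. Traf3, the adaptor toward TBK1, had 6.95 TPM in replicate 1 and 4.88 in replicate 2.

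Among the TAK1 and IKK genes, the 2 catalytic IKK subunits were alike. Ikbkb, which encodes IKK-beta, had 62.3 TPM in replicate 1 and 39.1 in replicate 2, and Chuk, which encodes IKK-alpha, had 61.0 and 35.7 TPM. Ikbkg, the regulatory subunit NEMO, was lower, at 13.5 TPM in replicate 1 and 10.5 in replicate 2. Map3k7, which encodes TAK1, had 21.5 TPM in replicate 1 and 16.0 in replicate 2. Of its binding partners, Tab2 had 38.7 TPM in replicate 1 and 40.4 in replicate 2, Tab1 had 12.4 and 9.41 TPM, and Tab3 had 5.02 and 2.63 TPM. Tab2 and Tab3 both encode ubiquitin-binding partners of TAK1, and Tab3 was the rarest of the 7 genes in both libraries.

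Every tier of the MAP kinase cascades was represented. Map3k8, which encodes the ERK-activating kinase TPL2, was the highest in the first quantification, at 79.4 TPM in replicate 1 and 47.8 in replicate 2. Its substrates Map2k2 and Map2k1 had 37.5 and 14.8 TPM and 18.95 and 10.4 TPM in the same order of libraries, and Mapk3, which encodes ERK1, had 16.6 TPM in replicate 1 and 18.9 in replicate 2. In the p38 branch, Mapk14, the gene for p38-alpha, had 44.1 TPM in replicate 1 and 28.9 in replicate 2, and Mapkapk2, a p38 target that stabilises cytokine mRNAs, had 45.5 and 19.4 TPM. In the second quantification Mapkapk2 had 67.3 TPM in replicate 1 and 31.4 in replicate 2, against 34.1 and 39.8 for Map3k8. Of the kinases upstream of p38, Map2k3 had 28.9 TPM in replicate 1 and 10.1 in replicate 2, while Map2k6 had 1.05 and 1.25 TPM, from 37 and 49 counts. In the JNK branch, the kinases Mapk9 and Mapk8 had 20.7 and 18.4 TPM and 15.2 and 14.9 TPM, and the enzymes that activate them, Map2k7 and Map2k4, had 22.9 and 16.7 TPM and 12.9 and 9.21 TPM. Map2k6 was the lowest of the genes that reached 1 TPM in both libraries. In the second quantification Map2k6 stayed below 1 TPM, at 0.551 in replicate 1 and 0.999 in replicate 2.

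Related genes were compared within each library, on TPM, as the plot of related genes shows. All 12 ratios had the same sign in both libraries, and 9 had the same sign in both libraries of both quantifications. The widest was Map2k3 over Map2k6, at log2 3.89 ± 1.25 (SD, n = 2 libraries), followed by Tab2 over Tab3 at 3.44 ± 0.702 and Myd88 over Tirap at 2.87 ± 0.868. Myd88 over Tirap was smaller in the second quantification, at 2.08 in replicate 1 and 0.88 in replicate 2. Irak1 exceeded Irak4 by log2 1.77 ± 0.191, and Irak2 exceeded Irak3 by 1.39 ± 0.453. Tbk1 over Ikbke gave -1.49 ± 0.528, Ticam1 over Ticam2 -1.33 ± 0.545, Map2k1 over Map2k2 -0.74 ± 0.339 and Mapk8 over Mapk9 -0.37 ± 0.103. The other 3 ratios turned with the quantification. Map2k4 over Map2k7 was -0.84 ± 0.0213 in the first quantification and positive in both libraries of the second, at 0.70 and 1.63. Ikbkb over Chuk was 0.08 ± 0.0711 in the first and negative in both libraries of the second, at -0.46 and -0.24. Traf6 over Traf3 was 0.65 ± 0.104 in the first, and -0.43 and 0.30 in the second. These ratios were not tested, and their SD rests on 2 libraries.

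**Figure D2:**
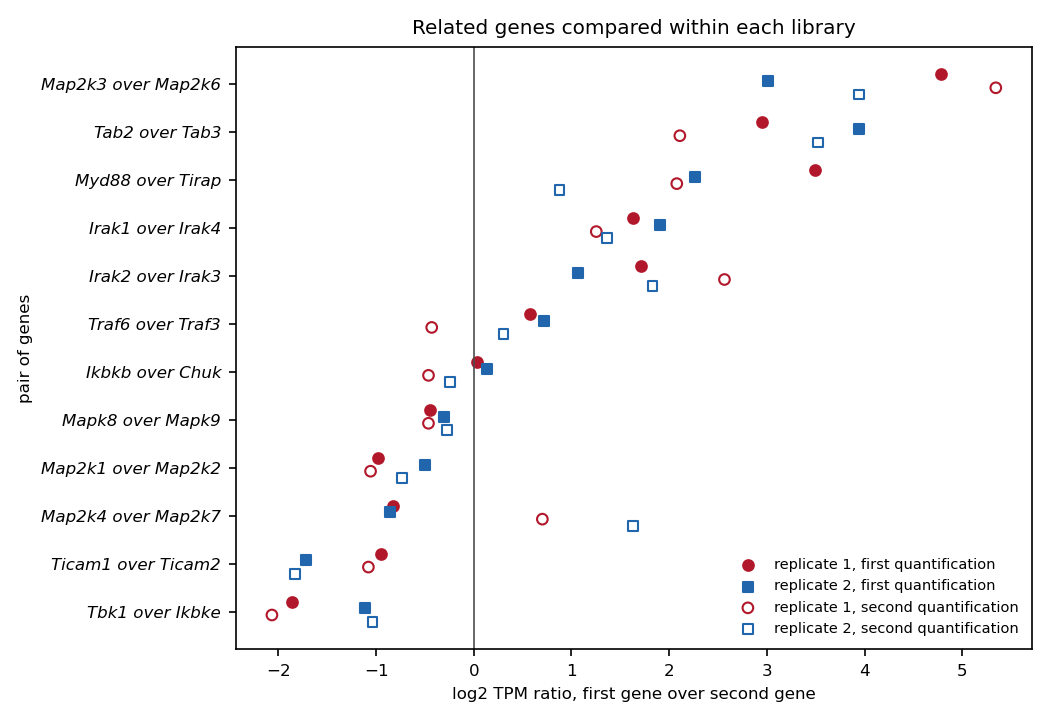
Log2 ratio of TPM of the first over the second gene of each of 12 pairs, in replicate 1 (circles) and replicate 2 (squares), for the first quantification (filled) and the second (open). Map2k4 over Map2k7 is the pair whose open and filled symbols lie on opposite sides of 0 by the widest gap.

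Differences between the libraries were small for most of the genes. Scaled counts of all 39 could be compared, and 29 had a log2 ratio of replicate 1 over replicate 2 within 0.5 of 0. The median absolute ratio was 0.28 for the 39 and 0.31 for all 15557 genes tested. By a rule of more than 2-fold with the 95% counting interval clear of 0, no gene of the list was called higher in replicate 1, against 3.67% of all genes tested. By the same rule 1 gene, Ly96, was called higher in replicate 2, against 4.36% of all genes. Its log2 ratio was -1.01 (counting interval -1.42 to -0.61), just past the limit, and it was -0.96 in the second quantification. Counting intervals lay above 0 for 16 of the 39 genes, against 25.6% of all genes tested, and below 0 for 13, against 24.5%. For 16 and 11 genes both quantifications put the interval on that side, and for 0 genes they put it on opposite sides. An interval narrows as counts rise. A mean scaled count of 100 or more was reached by 37 of the 39 genes and by 9838 of the 15557. The shares of intervals clear of 0 were thus compared at unlike depth.

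The plot of ratios shows a few genes apart from the rest. Myd88 had the highest ratio, log2 0.90 (0.75 to 1.05), from 1023 counts in replicate 1 and 526 in replicate 2. Map2k2 followed at 0.83 (0.66 to 1.00), Ikbke at 0.82 (0.77 to 0.87), Map2k3 at 0.79 (0.59 to 0.99) and Mapkapk2 at 0.78 (0.67 to 0.88). Irak2 at 0.56 and Map2k1 at 0.54 came next. At the low end, the ratios next to that of Ly96 were those of Ticam2 at -0.57 (-0.71 to -0.43) and Tirap at -0.57 (-0.87 to -0.27). Ube2n at -0.48, Map2k6 at -0.46 (-1.12 to 0.18) and Mapk8 at -0.43 followed. Base composition moved with these ratios. The median log2 ratio was 0.31 in the 10% of all genes highest in GC content and -0.26 in the 10% lowest, and Spearman's rho of ratio against GC content over the 39 genes was 0.57, as a description over genes that share the same 2 libraries. With the trend over GC content taken out, the ratio of Ly96 was -0.80 (-1.22 to -0.40), no longer past 2-fold, and the intervals of 14 genes lay above 0 and of 11 below. What part base composition had in the ratio of any gene was not tested.

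**Figure D3:**
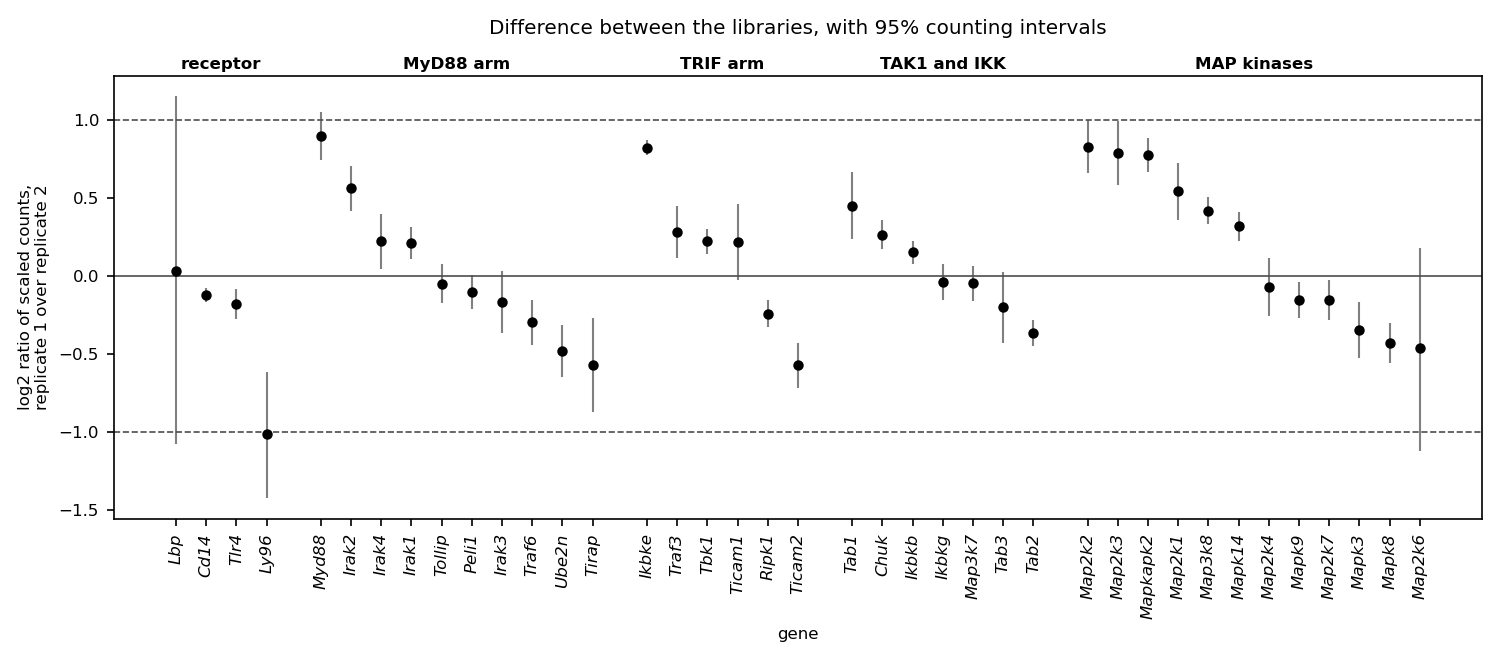
Log2 ratio of scaled counts, replicate 1 over replicate 2, for each gene, with 95% counting intervals; dashed lines mark 2-fold. Ly96 is the single gene past a dashed line, and Lbp and Map2k6 have the widest intervals.

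Much of the RNA of these genes was assigned to transcripts that do not encode the full protein. Of the 39 genes, 29 have an annotated retained-intron transcript, a form in which an intron stays in the RNA, and such forms are 65 of the 256 annotated transcripts. Over the 28 of these genes whose mean was at least 1 TPM, the median share of a gene's TPM on retained-intron transcripts was 34.1 ± 2.14% (SD, n = 2 libraries). Over all 6517 genes that could be measured the same way it was 32.5%, so the list stood near the rest of the nuclear transcriptome. Because TPM is per length and many of these forms are short, the share of counts was lower, 15.8% for the list and 19.6% for all genes. Reads of an unspliced precursor and of a retained intron cannot be told apart in these tables.

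Single genes differed widely in this share. In 6 of the 28 genes retained-intron forms held at least 50% of TPM in both libraries, against 17.3% of the 6517 genes. They were Ikbke with 62.7% in replicate 1 and 65.4% in replicate 2, Mapk8 with 62.6% and 62.7%, Chuk with 58.2% and 57.7%, Ikbkb with 55.9% and 57.8%, Map3k8 with 55.9% and 67.5%, and Map2k3 with 65.6% and 50.5%. The libraries differed by less than 3 percentage points for the first 4 of these and by more than 10 for Map3k8 and Map2k3. The catalytic subunits Chuk and Ikbkb were both on this list, while the regulatory subunit Ikbkg had 8.29% in replicate 1 and 16.8% in replicate 2. Their annotation differs too, with retained-intron forms 6 of 8 transcripts for Chuk, 7 of 14 for Ikbkb and 1 of 18 for Ikbkg. The share of Chuk by counts was 29.9% in replicate 1 and 36.3% in replicate 2. The part of annotation in this contrast was not tested. By counts, 2 genes held at least 50% on such forms in both libraries, against 14.1% of the 6517 genes. They were Ikbkb with 51.9% and 56.4% and Myd88 with 51.1% and 52.2%.

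Myd88 shows what such a transcript holds. Its reads were divided between the coding transcript, with 501 counts in replicate 1 and 251 in replicate 2, and the retained-intron transcript, with 522 and 275. The second of these keeps introns 2 and 3 of the 5 introns of the coding transcript. Intron 3 has 160 bases, at chr9:119337846-119338005 on the minus strand (mm10), and its sequence from the GENCODE M21 transcript is printed with the intron in capitals and 10 bases of each flanking exon in lower case.
Myd88 intron 3: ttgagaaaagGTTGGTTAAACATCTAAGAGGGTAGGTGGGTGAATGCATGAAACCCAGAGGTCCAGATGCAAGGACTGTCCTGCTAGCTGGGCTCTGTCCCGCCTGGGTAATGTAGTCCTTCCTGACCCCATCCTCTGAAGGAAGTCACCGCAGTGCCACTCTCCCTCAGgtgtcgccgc
The intron begins with the GT and ends with the AG of a standard splice site.

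Whole introns that lie between coding exons and are held in a retained-intron transcript were found in 10 of the 39 genes, 18 introns in all, with a median length of 281.5 bases and a range of 76 to 1900. All 18 begin with GT and end with AG. Chuk, Map3k8 and Map2k3 were not among these 10 genes. The start of the intron is shown for genes whose retained forms together took large shares, so that the splice sites can be compared. The last 10 exon bases are in lower case and the first 20 intron bases in capitals.
Myd88 intron 2, chr9:119338187-119338575, start: gaccccctagGTAAGGGCCCAGTACTGTGC
Ikbke intron 17, chr1:131259284-131260005, start: agctggataaGTGAGTGGTCCCCTTCCCAT
Ikbke intron 18, chr1:131257998-131259181, start: agcggatgagGTAAGCAGCCTAGCCCTTCC
Ikbke intron 19, chr1:131257224-131257900, start: tctgaacaagGTGTGGGGTGCTTTCAGAGT
Ikbkb intron 12, chr8:22669731-22671630, start: agctgtatccGTAAGTGCATCATTTATTAA
Ikbkb intron 13, chr8:22669097-22669606, start: gagcagccatGTACTGCGCCAGGCTGGCTT
Mapk8 intron 7, chr14:33388983-33390672, start: ggaagggactGTATCCTTGTGCTGCTGCAG
Ikbke-206 keeps 3 neighbouring introns, of 722, 1184 and 677 bases, and held 3005 counts in replicate 1 and 1498 in replicate 2. Ikbkb-211 keeps introns of 1900 and 510 bases and held 699 counts in replicate 1 and 648 in replicate 2. Mapk8-211 keeps an intron of 1690 bases and held 214 counts in replicate 1 and 276 in replicate 2. Each of these transcripts was only part of its gene's retained share. Of the gene's TPM in replicates 1 and 2, Ikbke-206 held 10.1% and 8.98%, Ikbkb-211 12.7% and 15.4%, and Mapk8-211 22.3% and 23.9%. Intron numbers follow the coding transcripts Ikbke-201, Ikbkb-201 and Mapk8-205, and all of these genes lie on the minus strand (mm10).

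Counting only transcripts annotated as protein-coding reordered the genes, as the plot of transcript classes makes visible. The coding share of TPM had a median of 65.9 ± 3.53% (SD, n = 2 libraries) over 38 genes and of 70.5% over all protein-coding genes measured. Cd14, Ikbke and Tbk1 were the 3 highest genes either way by the mean of the libraries, with coding levels of 220 and 188 TPM, 103 and 44.1 TPM, and 43.4 and 40.6 TPM. In replicate 1 alone Map3k8 was above Tbk1 by TPM, and Mapkapk2, at 45.5 coding TPM, was above Tbk1 by coding TPM. Positions in what follows are by the mean. Ube2n dropped from position 12 to 35, with 4.14 coding TPM in replicate 1 and 3.24 in replicate 2. The noncoding Ube2n-204, of 759 bases, held 56.5% of its TPM in replicate 1 and 58.8% in replicate 2. Other forms not annotated as protein-coding held most of the rest. By counts the coding share of Ube2n was larger, 55.6% in replicate 1 and 39.8% in replicate 2. Ikbkb moved from position 5 to 12 and Irak2 from 13 to 23. Tlr4, Mapkapk2 and Mapk3 moved up, to positions 8, 4 and 13. The most abundant transcript was the same in both libraries for 30 genes by TPM and for 33 by counts, and it was a coding one in both libraries for 31 genes by TPM and 36 by counts. In the second quantification 22 genes were led by a coding transcript in both libraries, and 17 genes had 1 leading transcript in all 4 tables.

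**Figure D4:**
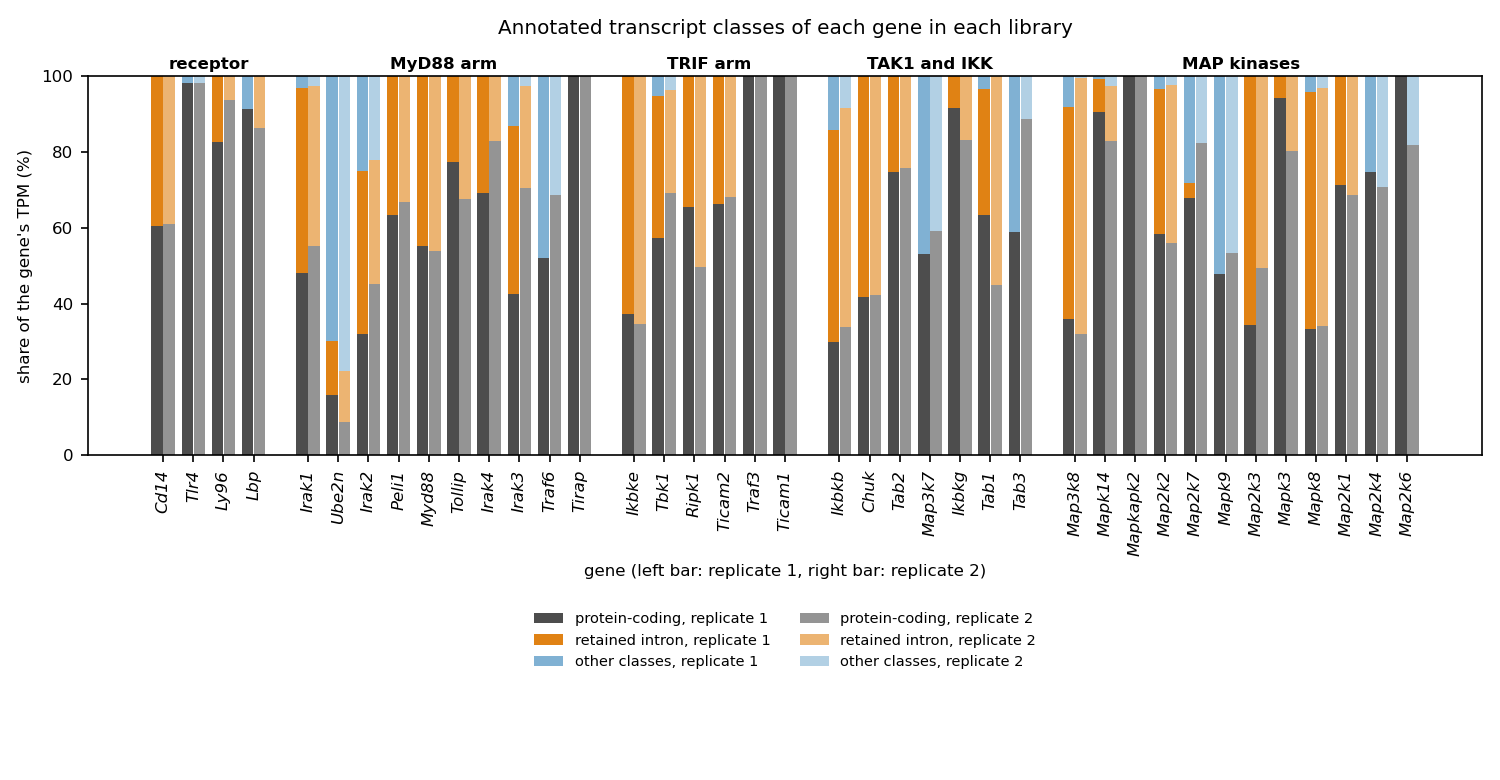
Share of each gene's TPM on protein-coding (grey), retained-intron (orange) and other (blue) transcripts, with replicate 1 as the left, darker bar and replicate 2 as the right, paler bar. Ube2n has the smallest coding share, and Tirap, Ticam1, Traf3 and Mapkapk2 are wholly coding in both libraries.

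The 2 quantifications of the same reads agreed within 2-fold for most of the genes. After centring on all genes, 2 of 37 genes that could be compared were over 2-fold apart in both libraries, against 7.2% of 11756 genes. Tirap gave a log2 ratio of first over second quantification of -1.001 in replicate 1 and -1.01 in replicate 2, at the edge of the limit. Map2k4 gave -1.09 in replicate 1 and -2.08 in replicate 2. Of its transcripts, the short coding Map2k4-204 had 75.8 counts in replicate 1 and 346 in replicate 2 in the second quantification, against 10.7 and 5.46 in the first. Before centring, the median log2 ratio over all genes was 0.95 in replicate 1 and 0.038 in replicate 2, so the 2 tables of replicate 1 are on different scales.

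**Figure D5:**
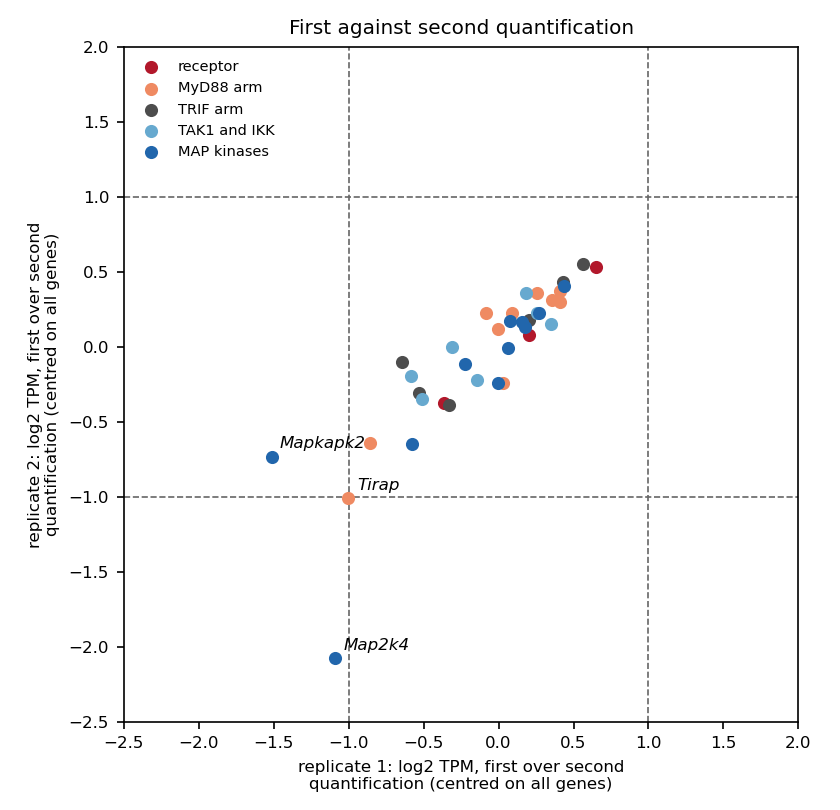
Log2 ratio of TPM, first over second quantification, in replicate 1 (horizontal) and replicate 2 (vertical) for 37 genes coloured by arm; dashed lines mark 2-fold. Most genes lie inside the central square, and Map2k4, Tirap and Mapkapk2 lie past a line in at least 1 library.

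Mapkapk2 was the third gene to stand out there, with -1.51 in replicate 1 and -0.73 in replicate 2. Its span, chr1:131053700-131097826 on the minus strand, encloses on the same strand the unclassified transcribed locus Gm37084 (chr1:131086252-131092149), which shares no exon base with it and so lies inside an intron. Gm37084 held 33488 counts in replicate 1 and 10438 in replicate 2, against 2009 and 1126 for Mapkapk2 itself. The locus was higher in replicate 1 by log2 1.62 (1.59 to 1.65). In the second quantification the ratio of Mapkapk2 was 1.54, against 0.78 in the first, and its short transcript Mapkapk2-202 held 1255 counts in replicate 1 and 380 in replicate 2, against 60.0 and 15.03 in the first. Whether reads of the enclosed locus entered the Mapkapk2 values was not tested.

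Overlap with other genes touched more than this 1 gene. Another annotated gene overlapped 21 of the 39, on the same strand for 12, and whether the counting used strand is not stated in the sources at hand. Of the 39 leading transcripts by counts, 17 shared no word of 31 bases with another gene's transcripts, and 5 shared 10% or more of their words. Map2k7 shared 37.7%, all with the overlapping same-strand gene Gm49320, which held 11.0 counts in replicate 1 and 0 in replicate 2. Ticam2 shared 19.5%, nearly all with Tmed7, a trafficking gene of the same strand that held 1138 counts in replicate 1 and 1688 in replicate 2. Both had ratios of the same sign, with log2 -0.63 for Tmed7. Ube2n shared 11.3%, nearly all with the pseudogene Ube2n-ps1. Irak2 shared 15.6%, of which 8.24 points were with Gm7229, and Tirap shared 13.4%, of which 9.06 points were with Gm39318, an overlapping gene of the opposite strand. Myd88 shared 7.99%, all with Acaa1a on the opposite strand, whose log2 ratio was 0.61 (0.50 to 0.73) beside the 0.90 of Myd88. These shares are of words in 1 transcript per gene and do not measure how uncertain a level is. Map2k7 itself held 996 counts in replicate 1 and 1063 in replicate 2. The part of shared reads in the levels and ratios of these genes was not tested.

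The promoters of the genes were searched for the kB consensus, the binding sequence of NF-kB, on both strands of the 250 bases before and 50 bases after the start. RefSeq promoter entries (GRCm38.p6) were found for 30 of the 39 genes. The consensus occurred in 3 of these genes and in 4 of their 44 entries, 9.09%, against 8.46% of 32851 entries of all genes. The share was thus near that of all promoters. The 3 genes are shown with the match in capitals and 15 bases on each side, read along the gene.
Traf3, plus strand, promoter chr12:111166120-111166419: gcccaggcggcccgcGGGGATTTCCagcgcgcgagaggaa
Map3k7, plus strand, promoter chr4:31963857-31964156: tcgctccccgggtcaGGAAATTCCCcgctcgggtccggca
Irak1, minus strand, promoter chrX:74023872-74024171: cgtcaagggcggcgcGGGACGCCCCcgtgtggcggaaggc
The match ended directly before the start of Traf3, and lay 92 to 83 bases before that of Map3k7 and 18 to 9 bases before that of Irak1. A match is a description of sequence and not of binding.

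Other genes of the pathway were followed in 3 lists, chosen with earlier results of these data known. All 10 genes of receptor partners and trafficking reached 1 TPM in both libraries, and their median was 57.3 ± 1.05 TPM (SD, n = 2 libraries), above that of the 39. The highest by the mean of the libraries were Unc93b1, a chaperone of endosomal receptors, at 289 TPM in replicate 1 and 179 in replicate 2, Hsp90b1, the folding chaperone of TLRs, at 215 and 198 TPM, and Cd180, a TLR4 relative that restrains its signalling, at 177 and 154 TPM. Tmed7 was the lowest of them, at 12.8 and 11.7 TPM. No gene of this list was called between the libraries, against 3.67% of all genes tested higher in replicate 1 and 4.36% higher in replicate 2.

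Of 17 inhibitors of TLR signalling, 14 reached 1 TPM in both libraries, and their median was 19.1 ± 3.93 TPM (SD, n = 2 libraries). The highest by the mean were Nfkbia, the inhibitor of NF-kB, at 616 TPM in replicate 1 and 191 in replicate 2, Tnfaip3, the ubiquitin-editing enzyme A20, at 402 and 194 TPM, and Trafd1 at 183 and 87.0 TPM. Of the 16 that could be compared, 3 were more than 2-fold higher in replicate 1, against 3.67% of all genes tested, namely Nfkbia by log2 1.34, Tnfaip3 by 1.12 and Nfkbib by 1.10, and 0 were higher in replicate 2. The median ratio over the 16 was 0.50, against -0.045 over the 39 genes and -0.0034 over all genes tested. Because the list was chosen with earlier results of these data known, these comparisons are description only. Il1rl1 was the lowest, at 0.08 TPM in replicate 1 and 0.10 in replicate 2.

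Of 27 further kinases, ligases and their partners, 23 reached 1 TPM in both libraries, and their median was 12.3 ± 2.86 TPM (SD, n = 2 libraries). Birc3, a ubiquitin ligase and NF-kB target, was the highest, at 116 TPM in replicate 1 and 50.2 in replicate 2. It was the single gene past 2-fold among 25 that could be compared, by log2 1.14 in the direction of replicate 1. Of all genes tested, 3.67% were called higher in replicate 1 and 4.36% higher in replicate 2, so 1 among 25 was near the background. Tank, a scaffold of TBK1, had 55.8 TPM in replicate 1 and 35.8 in replicate 2, and Mapkapk3, a relative of Mapkapk2, had 56.8 and 32.2 TPM. Mapk13, a p38 kinase, was at 0 in both libraries, which allows up to 0.165 CPM in replicate 1 and 0.161 in replicate 2.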

How the data were processed

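Per the file headers and accompanying notes, the authors deposited 3 tables per library on mm10 with GENCODE M21. In the first quantification (column names as RSEM writes) the authors deposited expected counts, TPM, posterior-mean TPM, FPKM, the percent of a gene's TPM on each transcript, and the bounds of TPM intervals, treated here as a score. The second, deposited per transcript (column names as kallisto writes), gives estimated counts and TPM. No version, filter or strand setting is stated in the sources at hand. Per the labels the size range was 250 to 400.

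The 39 genes and all lists were chosen with earlier results of these data known; every gene of the list is named, and of the other lists the highest 3, the lowest and those past 2-fold. Spike-in, numbered and phiX entries (26345) took 0.823% and 0.207% of counts and were left out. Expected counts were rounded and scaled by TMM (edgeR 4.0.16, R 4.3.3), with a prior count of 0.5, where the mean scaled count was at least 10. Intervals are exact binomial, at 95%, and cover counting error only, as reads are not independent molecules. Ratios were tested before use on simulated counts that held counting error only. That step therefore does not cover other differences between real libraries. With 1 group no test between conditions was possible. Transcript classes came from the identifiers. Shared words and overlaps used GENCODE M21. Size factors came from DESeq2 1.42.0, tables from pandas 2.3.3 and numpy 2.4.6 in Python 3.11.15, rank correlation from scipy 1.17.1, the GC trend from statsmodels 0.14.6, and figures from matplotlib 3.10.9. Alternatives covered normalization, filters, prior count, pseudocount, quantification and leaving out a replicate. The GC adjustment (lowess, span 0.3) was added after seeing the data.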

Additional observations from a re-analysis of the deposited data

How the results depend on the processing

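No paired analysis was possible because the study has 1 group. The median TPM of the 39 genes was 13.3 in the second quantification and 56.4 after rescaling over nuclear-encoded genes with an effective length of 200 or more, against 18.8. The count of genes past 2-fold between the libraries was 1 in the main setting, Ly96, higher in replicate 2. It was 0 with DESeq2 size factors, with library totals, with a prior count of 2 and with the trend over GC content taken out, where Ly96 lay between -0.99 and -0.80 on the log2 scale. On TPM ratios it was 6, all higher in replicate 1. In the second quantification it was again 1, but the gene was Mapkapk2, higher in replicate 1, and Ly96 was at -0.96. The retained-intron share was 15.8% by counts and 39.2% in the second quantification, and the coding share 86.2% and 57.1%. Genes over 2-fold apart between quantifications numbered 1 on counts in place of TPM and 0 with no centring, against 2. In the second quantification 3 pairs turned sign, Map2k4 over Map2k7 at 1.16, Ikbkb over Chuk at -0.35 and Traf6 over Traf3 at -0.063, and Myd88 over Tirap was 1.48 against 2.87. The causes were not tested. Leaving out a library allows no ratio between them. Of the other alternatives for summary values, 26 stayed within the spread or within 1.5 times the count, among them that count of 1 for another gene. Lbp and Map2k6 are limited by depth.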
